A study of Mus musculus with 4 samples.

Results

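Ighm, Cd79a, Cd79b, Cd22, Bank1, Ms4a1, Fcmr, Tnfrsf13c and Pou2af1 are the 9 genes described here, the B cell receptor and its close partners together with surface markers of B cells. They were found on the arrays by gene name, which gave 13 of the 41174 probes (Fcmr is written Faim3 in the older array annotation). Several of the 9 were selected on these measured values because they were lower in both Rspo3 knockout pairs. Their knockout ratios are therefore given as a description with no test, and nothing is supported with them.

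The study asked how R-spondin 3, a secreted Wnt amplifier of the stroma, acts on the colon, and 4 two-colour Agilent arrays of mouse RNA are used. The first pair of arrays compared the colon of 1 Myh11CreErt2/Rspo3 fl/fl mouse with that of 1 Myh11CreErt2/Rspo3+/+ littermate each. Both genotypes carried the Cre transgene and received tamoxifen at 4 mg per 25 g of body weight, and the tissue was taken 2 weeks later. The mice were male, 6 to 8 weeks old and on a C57BL/6 background. The Cre is driven by the promoter of Myh11, which myofibroblasts and smooth muscle cells use. The knockout (KO) RNA was labelled with Cy5 in pair 1 and with Cy3 in pair 2. The labels call the tissue distal colon, and the study's methods say colon. The second pair of arrays compared sorted epithelial cells of Axin2CreErt2/Rosa26-tdTomato mice 24 h after tamoxifen. Live cells carrying the epithelial antigen ESA were divided into tdTomato+ (Axin2+, the Wnt-responding cells) and tdTomato- (Axin2-) fractions, each pooled from 3 mice. Those arrays held the same 2 pools with the dyes reversed and count as 1 replicate.

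B cells recognise antigen through a membrane immunoglobulin whose heavy chain is of the mu or delta class before class switching. The heavy chain is paired with a kappa or lambda light chain and held in a complex with the signalling chains Cd79a and Cd79b. In the gut wall, naive and memory B cells sit mostly in lymphoid follicles that stromal chemokines organise. Plasma cells, which secrete immunoglobulin and have shut down much of the B cell surface programme, lie scattered through the lamina propria.

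The probes behind the largest differences are shown so that a reader can see which stretch of each transcript was measured. Each array probe is a 60-mer and its first 30 bases are given, 5′ to 3′, without capitals because no motif was sought in them. The place of each probe within the transcript was not worked out here.
Ighm: gccctccagcttttatctctgagatggtct
Cd79b: agagacttgttggaatctgcaaatggactc
Ms4a1, brighter probe: gctgtgctttgagattctttccaaatggca
Ms4a1, dimmer probe: taatggtttttccgcatttcctccatcagc
Fcmr: cgttttccttataggatccctgtcatggcg
Tnfrsf13c: ataaaatggactaacacaggcactatgagt
The array files place these probes on mouse build mm9 at chr12:114656861-114656920 on the minus strand for Ighm, at chr11:106172780-106172839 on the minus strand for Cd79b and at chr19:11325367-11325426 on the minus strand for the brighter Ms4a1 probe. The Fcmr probe lies at chr1:132777256-132777315 on the plus strand and the Tnfrsf13c probe at chr15:82052225-82052284 on the minus strand. The dimmer Ms4a1 probe has no position in those files.

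A probe was taken as measured if it was well above background, by the extraction software's own flag, in at least 1 channel on each of the 2 arrays of an experiment. In the colon 15372 genes were measured, and the ratio of KO over control showed almost no correlation between the pairs across genes (Pearson r = 0.0329, genes not being independent replicates). Between 53.1% and 60.3% of spots were well above background in a channel, and genes of epithelium, smooth muscle, fibroblasts and leukocytes were all measured in the colon RNA. The targeted gene could not be checked well. One Rspo3 probe did not clear the background in the 4 colon channels. The other Rspo3 probe was above it only in pair 2, where its log2 ratio was 0.17, the KO being slightly the higher. Whether either probe lies in the deleted part is not known here, so neither checks the labels.

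The genes of the receptor itself were lower in the KO in both pairs where they could be measured. On the normalized log2 scale, Ighm, the heavy chain of IgM, was at 12.51 in the control and 10.36 in the KO of pair 1, and at 11.77 and 10.06 in pair 2. Cd79b, the beta signalling chain of the receptor, was at 11.30 in the control and 8.81 in the KO of pair 1, and at 10.14 and 8.85 in pair 2. For both genes the 2 controls were above the 2 KO samples. How many of all genes share that order was not counted, and several members were picked as lower. The ratio of KO over control was -2.15 and -1.72 for Ighm, a mean of -1.93 ± 0.31 (SD, n = 2 pairs) or 3.82-fold lower in the KO. For Cd79b it was -2.49 and -1.29, a mean of -1.89 ± 0.85 (SD, n = 2 pairs) or 3.71-fold lower. Cd79a, the alpha signalling chain, could not be assessed, because its single probe did not clear the background in the colon.

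Genes of B cell surface proteins were lower in the KO in both pairs as well. Ms4a1, which encodes CD20, was at 9.92 in the control and 7.17 in the KO of pair 1, and at 9.41 and 7.14 in pair 2, by its brighter probe. Fcmr, the Fc receptor for IgM, was at 10.43 and 7.41 in pair 1, and at 9.57 and 7.32 in pair 2. Tnfrsf13c, the receptor for the survival factor BAFF, was at 9.58 and 7.03 in pair 1, and at 9.04 and 6.98 in pair 2. In each of these genes both controls lay above both KO samples, an order that was not counted over all genes. The mean log2 ratio was -2.51 ± 0.34 (SD, n = 2 pairs) for Ms4a1, which is 5.71-fold lower in the KO. It was -2.63 ± 0.54 (SD, n = 2 pairs) for Fcmr, which is 6.21-fold lower, and -2.31 ± 0.35 (SD, n = 2 pairs) for Tnfrsf13c, which is 4.96-fold lower. The dimmer Ms4a1 probe was well above background in both controls and in neither KO sample. Its ratio, 3.12-fold lower in the KO, therefore rests on KO levels that did not clear the background. The levels come from loess within arrays followed by quantile scaling of the average intensities. A level is set against other samples of the same probe and never against another probe.

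The remaining members were Bank1, Cd22 and Pou2af1. Bank1, a scaffold protein of B cell receptor signalling, was at 7.42 in the control and 6.65 in the KO of pair 1, and at 7.48 and 6.68 in pair 2. This is a mean log2 ratio of -0.79 ± 0.02 (SD, n = 2 pairs) by the only 1 of its 3 probes that was measured. Cd22, an inhibitory co-receptor, was well above background only in the controls by 1 probe. That probe was 1.28-fold lower in the KO, with KO levels that did not clear the background. Its mean log2 ratio was -0.36 and lay between -2.48 and -0.16 over the settings. The other Cd22 probe stayed at background throughout. Pou2af1, the octamer coactivator OCA-B that plasma cells also express, did not share the pattern. It was at 10.78 in the control and 10.18 in the KO of pair 1 but at 9.55 and 9.98 in pair 2, so the groups overlapped and the mean ratio of -0.09 ± 0.73 (SD, n = 2 pairs) had no settled direction.

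**Figure D1:**
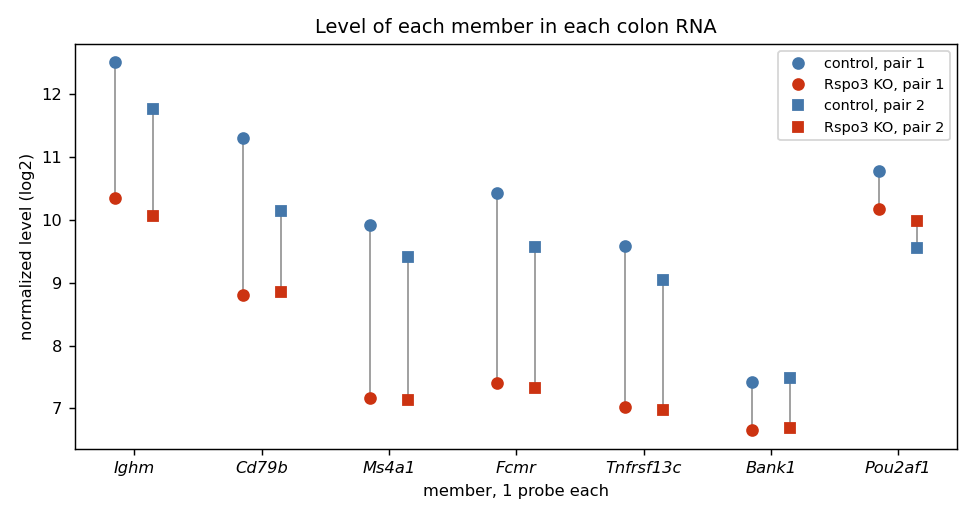
Normalized log2 level (vertical axis) of 7 members in each colon RNA, 1 probe per member, with control in blue, Rspo3 KO in red, circles for pair 1, squares for pair 2 and a line joining the samples of 1 array. Controls lie above KO samples in both pairs for the first 6 genes, and Pou2af1 changes order between the pairs.

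The 2 controls lay farther apart than the 2 KO samples for Ighm, Cd79b, Ms4a1, Fcmr and Tnfrsf13c, and about as near to each other for Bank1. The 2 KO samples differed by 0.30 on the log2 scale for Ighm and by at most 0.09 for Cd79b, Ms4a1, Fcmr, Tnfrsf13c and Bank1. The 2 controls differed by 0.74 for Ighm, 1.16 for Cd79b, 0.51 for Ms4a1, 0.86 for Fcmr and 0.54 for Tnfrsf13c, and by 0.055 for Bank1. Over all 22539 measured probes the median difference was 0.25 between controls and 0.20 between KO samples. Each genotype carried the other dye in the other pair, so these gaps hold dye effects as well as mice, and the 2 cannot be told apart.

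Of the 8 members measured, 7 were lower in both pairs and 6 were lower past 1.5-fold in both. Over all 15372 genes measured, 23.9% were lower in both pairs and 1.16% were lower past 1.5-fold in both. The members' counts are printed beside these shares only as a description, since the same ratios chose several of them. The median log2 ratio of the members was -2.32 in pair 1 and -1.50 in pair 2, against -0.0025 and -0.025 over all genes. In a piece of tissue, fewer B cells and less RNA per B cell cannot be told apart.

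**Figure D2:**
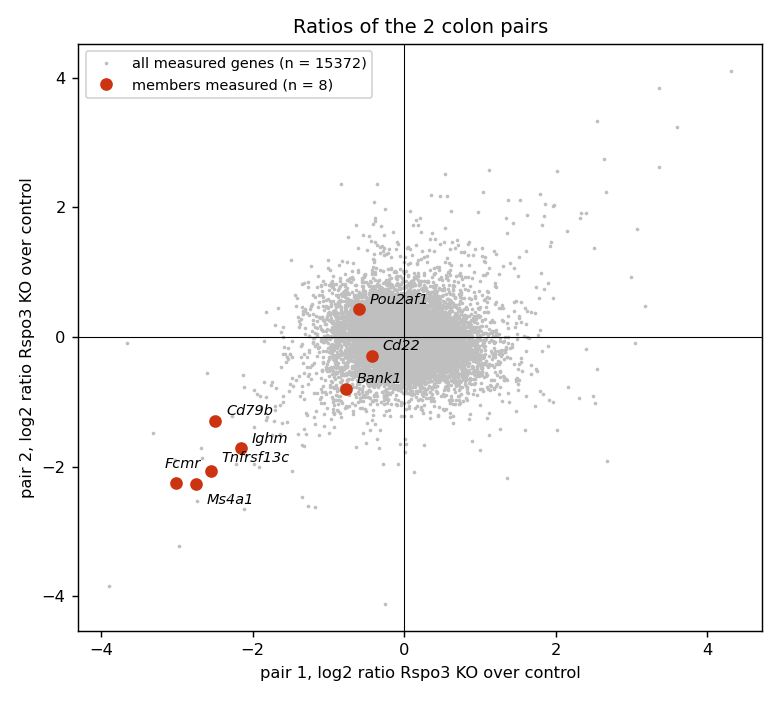
Log2 ratio of Rspo3 KO over control in pair 1 (horizontal) and pair 2 (vertical) for 15372 measured genes (grey) and the 8 measured members (red, named). Ighm, Cd79b, Ms4a1, Fcmr and Tnfrsf13c lie in the lower left, past -1 in both pairs, while Cd22, Bank1 and Pou2af1 lie in or at the edge of the main cloud.

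The immunoglobulin probes that the name rule did not take up allow the heavy chain result to be read class by class. The arrays held 129 probes described as immunoglobulin heavy or light chains, Ighm included, of which 91 were measured in the colon. Apart from the Ighm probe, 2 probes are described as the mu constant region and lie 2239 and 2769 bases from it on mm9. Their log2 ratios were -1.29 and -1.49 in pairs 1 and 2 for the nearer and -0.97 and -1.16 for the farther. These ratios measure the member itself and are also a description. One more probe, at chr12:114654277-114654336 on mm9 and 2584 bases from the Ighm probe, is called a variable segment in the annotation of the colon arrays and an immunoglobulin delta chain in that of the sorted-cell arrays. It was at -1.06 in pair 1 and -1.38 in pair 2. The mu probes and this probe were thus lower in the KO in both pairs.

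Probes for switched heavy chain classes had ratios of either sign. Both probes described as the gamma 1 constant region, a class made after switching, were higher in the KO in both pairs.
Gamma 1, first probe: ttacttcgtctacagcaagctcaatgtgca
Gamma 1, second probe: agatggccaaggataaagtcagtctgacct
The first gamma 1 probe, A_51_P461067, had log2 ratios of 2.02 and 2.55, and it rose by limma fitted to all measured probes (mean 2.29, adjusted p = 0.0315), a call that 0.0932% of probes reached upward. The second, A_52_P1054013, had ratios of 1.40 and 2.48 (mean 1.94, limma adjusted p = 0.102). The call of the first was lost when the dye background was fitted to all spots (adjusted p = 0.9998), with median centring (0.277) and with no filter on dim probes (0.460). A probe described only as a heavy chain, A_51_P122752, lies at chr12:114567137-114567196, beside the first gamma 1 probe at chr12:114567263-114567322. It was at 1.62 and 1.88 (limma adjusted p = 0.0505) and is counted below as unassigned. Both gamma 2C probes and the gamma 3 probe, which mark further switched classes, had negative ratios in both pairs, from -2.12 to -0.12, and none passed the test. The 1 probe described as alpha, the class of IgA, did not clear the background in the 4 colon channels. Constant-region classes can share sequence, and cross-hybridisation between them was not tested.

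Heavy chain variable segments, kappa and lambda light chains were read as groups. The 42 measured probes for heavy chain variable or otherwise unassigned heavy sequence had a median log2 ratio of -0.28 in pair 1 and 1.33 in pair 2, and 13 were higher and 0 lower in both pairs. Among them the bright probe A_51_P180159, at 0.23 and 1.33, carries the same gene name, Igh-VJ558, as the alpha probe. A_51_P180159 lies at chr12:114497243-114497302 and the alpha probe at chr12:114503159-114503217. The brighter Igh-VJ558 probes A_51_P187645 and A_51_P509679 lie beside A_51_P180159 but are not counted, since their pair 1 spots were outliers. By the extraction software's own ratio A_51_P187645 was at -0.16 and 1.67, and A_51_P509679 at -0.66 and 2.43. By that ratio A_51_P180159 was at 0.21 and 1.39. Which class these probes measure was not worked out. The 31 measured probes for kappa or unspecified light chains had medians of 0.07 and 1.24, with 20 higher and 0 lower in both pairs. All 9 measured lambda probes were lower in both pairs, with medians of -0.72 and -0.33. Over all measured probes 22.3% were lower and 22.4% were higher in both pairs. No p is given for the mu probes, which measure a member. Of the other immunoglobulin probes, only the first gamma 1 probe passed the test. Many of these probes overlap or match related segments, so they are not independent of each other.

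**Figure D3:**
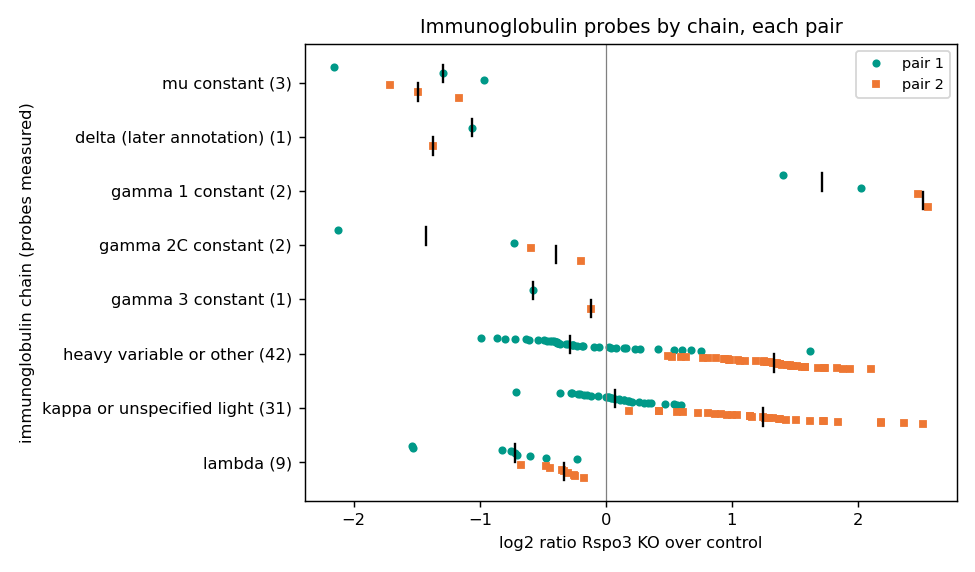
Log2 ratio of Rspo3 KO over control (horizontal axis) of each measured immunoglobulin probe by chain, with circles for pair 1, squares for pair 2 and a black bar at the median of each. Mu and delta probes lie below 0 and gamma 1 probes above 0 in both pairs, whereas heavy variable and kappa probes are centred near 0 in pair 1 and above 1 in pair 2.

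Genes of the same cells and pathway outside the member list were read from lists put together with earlier results of these data known. Here limma was fitted to all genes, with p-values adjusted over all 15372, and 0.111% of genes were called lower and 0.13% higher. Of 22 further B cell genes 16 were measured, and 11 of these were lower and 2 higher in both pairs. By comparison 23.9% of all genes were lower and 20.3% higher in both pairs. The list's median log2 ratio was -0.49 against -0.01 over all genes. None passed the adjusted test, and 7 were lower and 0 higher at an unadjusted p under 0.05, which 2.69% of all genes reached downward and 1.95% upward. Cxcr5, the receptor that guides B cells into follicles, had ratios of -1.82 and -1.23 (mean -1.52, SE 0.25, limma adjusted p = 0.0886). Fcrla (-1.35 and -0.75), Vpreb3 (-1.51 and -0.73) and Spib (-1.05 and -1.19), named after their values were seen, were the other 3 past 1.5-fold lower in both pairs. Of the brightest genes of the list, Bcl11a was at -0.40 and -0.58, Ly86 at -1.09 and 0.12, and Cd72 at -0.57 and 0.66.

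The signalling proteins downstream of the receptor, most of which other leukocytes or epithelial cells also use, stayed closer to 0. Of 18 such genes 17 were measured, with a median log2 ratio of -0.09. In both pairs 6 of them were lower and 0 higher, against 23.9% and 20.3% of all genes. None passed the adjusted test, and 2 were lower and 0 higher at an unadjusted p under 0.05, against 2.69% and 1.95% of all genes. The adaptor Blnk was at 0.39 and -0.60 and the kinase Lyn at 0.60 and -0.27.

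Genes of lymphoid tissue, the setting in which gut B cells are found, included 1 gene that passed the test. All 12 were measured, and 9 were lower and 2 higher in both pairs, with a median log2 ratio of -0.40. Among all genes 23.9% were lower and 20.3% higher in both pairs. At an unadjusted limma p under 0.05, 4 of the 12 were lower and 1 higher, against 2.69% and 1.95% of all genes. By the adjusted test 0.111% of all genes were called lower. Ccl19, a chemokine of the stroma of lymphoid tissue, fell, with ratios of -2.69 and -1.71 (mean -2.20, SE 0.29, limma adjusted p = 0.0327). Ltb, the lymphotoxin beta that lymphocytes use to signal to that stroma, was at -2.28 and -1.21 (limma adjusted p = 0.0998). Glycam1, a ligand on high endothelial venules, was at -3.32 and -1.48 (limma adjusted p = 0.0912), and Cxcl13, the chemokine for Cxcr5, was at -1.04 and -0.85 (limma adjusted p = 0.353). Glycam1 and Cxcl13 were named after their values were seen. Ccl20, an epithelial chemokine, was at 1.25 and 0.45. The call for Ccl19 was kept under 5 of 9 other settings and lost under the rest, with adjusted p-values from 0.000258 to 0.897. The software's ratio and the deposited table hold the same values and are both among the 9.

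No measured plasma cell gene was lower in both pairs. Of 14 listed genes 11 were measured, and 0 were lower and 4 higher in both pairs, while 7 had opposite signs. Over all genes 23.9% were lower and 20.3% higher in both pairs. The list's median log2 ratio was -0.10 in pair 1 and 0.56 in pair 2. Jchain, which joins secreted IgA and IgM into polymers, was at 0.75 and 1.12 (limma adjusted p = 0.400). Sdc1, a plasma cell marker that epithelium also carries, was at 0.05 and 0.40. Creld2 and Txndc5, also among the brightest of the list, changed sign, at -0.41 and 0.32 and at -0.26 and 0.26. None passed the adjusted test, while 0 were lower and 2 higher at an unadjusted p under 0.05, against 2.69% and 1.95% of all genes. The 4 measured of 8 germinal centre genes had opposite signs in the pairs and a median of -0.04.

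Markers of other cells moved with the members in part. Of 12 T cell genes 7 were measured and 5 were lower in both pairs, with a median log2 ratio of -0.52. None passed the adjusted test and 2 were lower at an unadjusted p under 0.05, against 2.69% of all genes. Cd8b1 was at -1.90 and -0.91 (limma adjusted p = 0.216), Lck at -0.95 and -0.47 and Cd3d at -0.73 and -0.30. The pairs had opposite signs for Cd5, at -1.39 and 0.16, and for Zap70, at 0.07 and -0.13. Genes of all leukocytes had a median of -0.79 in pair 1 and -0.03 in pair 2 over 7 genes, of which 3 were lower and 1 higher in both pairs. By comparison 23.9% of all genes were lower and 20.3% higher in both pairs. None of the 7 passed the adjusted test, and 2 were lower and 0 higher at an unadjusted p under 0.05. Cd52 was at -0.79 and -0.43, Coro1a at -0.80 and -0.03, Ptprcap at -0.99 and -0.48, and Ptprc, which encodes CD45, at -0.82 and 0.06. Of the 12 macrophage genes 1 was lower and 8 were higher in both pairs, with a median of 0.23. Of the brightest of these, C1qc was at 0.01 and 0.24, Adgre1, which encodes F4/80, at 0.72 and 0.66, and Cd14 at -0.23 and -0.36. The 6 measured smooth muscle genes and the 6 fibroblast genes had medians of 0.25 and 0.30. The 2 measured of 6 dendritic cell genes had a median of -0.07. Of 10 epithelial genes 6 were measured, with a median of -0.02, and 1 passed the test. Cdx2, a transcription factor of intestinal epithelium, rose, with ratios of 2.33 and 1.91 (limma adjusted p = 0.0199). That call was lost under 4 of 9 other settings, counting the software's ratio and the deposited table separately although they hold the same values. How far the amount of lymphoid tissue in each piece of colon entered the members' ratios was not tested.

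**Figure D4:**
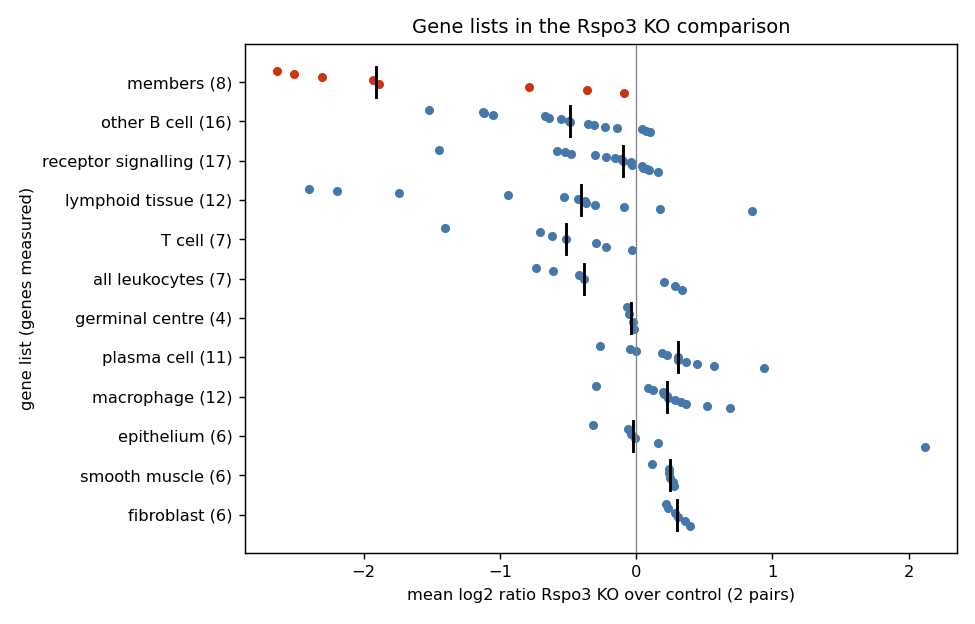
Mean log2 ratio of Rspo3 KO over control over the 2 pairs (horizontal axis) of each measured gene by list, with the number of genes measured in brackets and a black bar at the median. The members (red) have a median of -1.91, other B cell, lymphoid tissue and T cell genes have medians between -0.52 and -0.40, and plasma cell, macrophage, smooth muscle and fibroblast genes have medians above 0.

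Among 13619 genes measured in both experiments and not members, 5 lay nearest to the members' median over the 4 arrays by Euclidean distance. They were Apobec2, Ccl19, Ltb, Serpina1d and Plekhs1, in that order, at distances from 0.43 to 0.73 on the log2 scale. Apobec2 had ratios of -1.98 and -1.40 in the colon pairs and -0.43 and -0.35 on the Axin2 arrays. Serpina1d had -1.83 and -1.28 in the colon and Plekhs1 had -1.89 and -1.07. These genes were chosen for their likeness, and their values are a description.

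In the sorted epithelial cells the members were close to background, in both fractions. Across the 13 probes and 4 channels, 16 of 52 signals were well above background, against 32 of 52 in the colon. Over the member probes the signal was 0.948 to 3.01 times the local background, with a median of 1.52, and in the colon it was 1.15 to 103 times, with a median of 2.71. Of the 8 members measured in the colon 3 were also measured in the sorted cells, where 88.6% of all genes measured in the colon were. Ighm gave 66.3 and 216 units of raw signal in the Axin2- pool over backgrounds of 22.0 and 74.0, and 147 and 49.2 in the Axin2+ pool over backgrounds of 80.0 and 21.0, the higher value of each pool being in the Cy5 channel. The sort kept cells with the epithelial antigen, and the members' low signal was measured in that fraction.

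**Figure D5:**
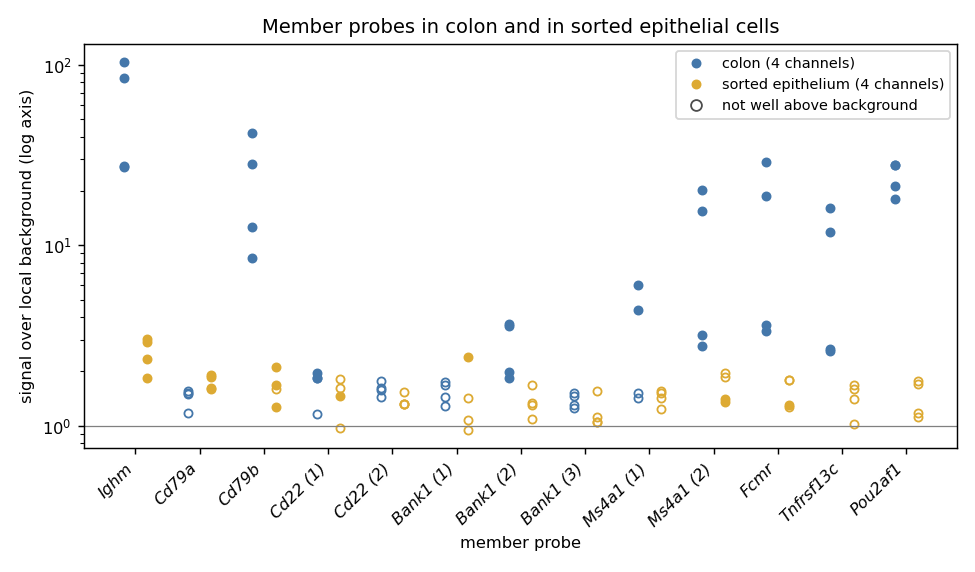
Raw signal over local background (vertical, log axis) of the 13 member probes, in the 4 colon channels (blue) and the 4 sorted-cell channels (yellow), with open circles where a probe was not well above background. Sorted-cell signals all lie between 0.948 and 3.01, whereas colon signals of Ighm reach 103.

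The ratio of Axin2+ over Axin2- could be taken for 4 members, with 1 replicate and no test. On the 2 arrays it was -0.59 and -0.52 for Ighm, -0.38 and -0.37 for Cd79b, -0.06 and -0.11 for Cd79a, and -0.07 and -0.04 for Ms4a1. Here 0 of the 4 were lower past 1.5-fold on both arrays, where 5.54% of 15880 measured genes were. The ratios of all genes correlated between the 2 arrays (Pearson r = 0.925, across genes). The offset of 50 units used here draws the ratios of dim probes towards 0. With the extraction software's own ratio, which has no such offset, Ighm was at -1.62 and -1.20 and Cd79b at -1.84 and -2.18, so 2 of the 4 were then lower past 1.5-fold on both arrays. That count was also 2 with an offset of 16 and was 1 with no background correction. By the software's ratio the sign differed between the arrays for Cd79a, at -0.67 and 0.34, and for Ms4a1, at 0.57 and -1.16. Of the further B cell genes measured there, Spib, which epithelial cells also express, was at -0.92 and -0.98 and was the only one of 9 lower past 1.5-fold on both arrays.

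The size of the colon ratios differed between settings. Fitting the dye background to all spots gave mean log2 ratios of -1.62 for Fcmr, -1.49 for Ms4a1 and -1.31 for Tnfrsf13c, and the software's own ratio gave -3.38, -3.46 and -3.38 for the same genes and -2.48 for Cd22.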

How the data were processed

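The authors deposited 4 two-colour Agilent arrays as scanner tables, with the mean signal and median background intensity of each spot in each dye and a log10 ratio (LogRatio) from Agilent Feature Extraction, run with default settings. Probe positions are on mm9. The deposited value table equalled that ratio on the log2 scale. The study combined replicates with other software, which was not used here. Intensities were background-corrected with normexp (offset 50, fitted without background-outlier spots) and normalized by loess within each array in limma 3.58.1 (R 4.3.3). Control and outlier spots were left out, spots of a probe were averaged, and ratios were turned to KO over control or Axin2+ over Axin2-. The brightest probe stood for a gene, which was kept if either dye cleared the background by the software's flag on each array. Genes were named through RefSeq (27753 probes by accession, 5533 by symbol, 460 by synonym, and 7428 kept the file's name). limma's moderated test (lmFit and eBayes, Benjamini-Hochberg) used the 2 colon arrays, with 1 residual and 6.75 prior degrees of freedom, and was tested on simulated data. The number of arrays limits the precision.

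The members and the gene lists were chosen with earlier results of these data known. Named were every member, the immunoglobulin probes, called genes or at most the 4 brightest of each list, the 5 genes of most like pattern, Rspo3, and genes said in the text to be named after their values were seen. Alternatives were the software's ratio, the deposited table, no background correction, an offset of 16, a background fitted to all spots, centring on the median, dim probes left in, a stricter filter that both dyes had to clear, averaging a gene's probes, and each array alone. They were run for the members, lists and counts as planned, and for the immunoglobulin probes as an addition chosen after seeing the data.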

Additional observations from a re-analysis of the deposited data

How the results depend on the processing

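The median log2 ratio of the measured members in the Rspo3 KO comparison was -1.91 and lay between -2.29 and -1.34 under the other settings, and between -2.32 and -1.50 with 1 array left out. The number of members lower past 1.5-fold in both pairs was 6 and lay between 4 and 7, with 6 to 7 when 1 array was left out. Counts over all genes moved more. The 17 genes called lower and 20 called higher by limma became 73 and 55 with the software's log ratio or the series value table, 73 and 53 with an offset of 16, 38 and 32 with no background correction, 0 and 1 with the background fitted to all spots, 2 and 6 with median centring, 0 and 0 with no filter on dim probes, and 1 and 4 with the mean over the probes of a gene. The 179 genes lower and 128 higher past 1.5-fold in both pairs became 424 and 274 with the software's ratio or the series table, 53 and 61 with the background fitted to all spots, and 105 lower with median centring, and 866 to 1149 lower and 689 to 1253 higher when 1 pair was read alone. In the Axin2 comparison 880 genes lower and 965 higher on both arrays became 1810 and 2177 with the software's ratio or series table and 255 and 87 with median centring, and 1056 to 1253 lower and 1284 to 1329 higher on 1 array alone. The Axin2 median of the members, -0.23, was -0.85 with the software's ratio or series table, -0.27 with no background correction, -0.44 with an offset of 16, -0.28 with median centring, -0.087 with no filter, -0.32 with the filter on both channels, and -0.24 to -0.22 on 1 array alone. The cause of these shifts was not tested. No paired analysis was possible because each array already holds 1 KO and 1 control, so the ratio itself is the paired value. With 2 pairs, dim probes and no usable Rspo3 probe, sizes of single ratios are loose.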
